A study of Mus musculus with 7 samples.

Results

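The transcripts described here are 7 matrix metalloproteinases (Mmp2, Mmp3, Mmp9, Mmp10, Mmp12, Mmp13 and Mmp14) and 3 of their tissue inhibitors (Timp1, Timp2 and Timp3) in mouse dorsal skin. They were taken by gene name, and all 10 were among the 17083 genes tested, measured by 14 probes. The skin came from male HR-1 mice, a hairless strain, labelled 5 weeks old and fed the AIN-93G rodent diet. In 4 groups, skin was taken from GC-fed mice after SDS (4 samples), control-fed mice after SDS (4 samples), GC-fed mice before SDS (3 samples) and control-fed mice before SDS (3 samples). GC-fed mice ate the diet with glucosylceramide, a sphingolipid that carries a sugar on ceramide, and control-fed mice ate it without. SDS is a detergent that damages the skin barrier; a 10% solution was applied on 2 consecutive days to the right side of the back. The skin after SDS was taken at day 14 of the diet and the skin before SDS at day 12. Each of 7 Agilent 2-colour arrays carried a GC-fed and a control-fed sample, so samples that share an array number and an SDS state were hybridised together. The labels number the biological replicates without saying whether each was 1 animal or a pool, and the p-values measure the spread between these samples.

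Matrix metalloproteinases are secreted or membrane-bound zinc enzymes that cut collagens, elastin, laminins and other matrix proteins, and also activate or cut cytokines and growth factors. They are made as inactive precursors and are held in check by the tissue inhibitors, which bind the active site. In skin, fibroblasts, keratinocytes at a wound edge and infiltrating macrophages and neutrophils are known sources, and several of the genes are switched on by inflammatory signals through the AP-1 transcription factor.

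Levels are given as log2 intensity and differences as log2 ratios. A level can be compared between samples for 1 gene and not between genes, because each probe has its own brightness. Of the 10 transcripts, 9 were well above background in all 14 samples. Mmp10 was the exception, well above background in 2 of 4 GC-fed and 2 of 4 control-fed samples after SDS, and in 1 of 3 GC-fed and 1 of 3 control-fed samples before SDS. No member spot was saturated (0 spots). All 8 basal and all 9 suprabasal keratinocyte markers looked for were measured, as were 12 of 12 fibroblast markers.

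Some arrays stood apart. Across genes, the diet ratios on after-SDS array 4 correlated with those of after-SDS arrays 1, 2 and 3 at r = -0.50, -0.62 and -0.30, while those 3 arrays correlated with each other at 0.32 to 0.50. On the arrays of untreated skin, the r of array 1 was -0.40 with array 2 and -0.18 with array 3. Arrays 2 and 3 correlated at 0.23. Array 1 alone of these carried the GC-fed sample in the dye Cy3, so the array and a dye effect cannot be told apart there. Genes are not independent replicates in these correlations. For each of the 10 transcripts the diet effect after SDS is therefore given with all 4 arrays, without array 4, and with the diet labels of array 4 turned round. Lists are given with all 4 arrays as labelled, and the labelled direction is kept everywhere else. Some marker lists were reversed on array 4 and others were not. For 9 suprabasal keratinocyte markers the median diet ratio was 1.23, 0.69, 0.69 and -0.83 on after-SDS arrays 1 to 4. For 8 basal keratinocyte markers it was 0.50, 0.34, 0.59 and -0.22. The median diet ratio of 7 mast cell markers was -0.18, -0.13, -0.90 and -0.16 on arrays 1 to 4, and that of 10 skeletal muscle markers was -1.19, -0.31, -1.29 and -0.26. All before-SDS arrays lay on 1 slide and all after-SDS arrays on another (0 slides held both), so the SDS effect, the slide and the later day cannot be told apart. In whole skin, fewer cells of a type and less RNA per cell cannot be told apart either.

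SDS was the comparison in which the transcripts moved. Averaged over both diets, Timp1, Mmp13 and Mmp9 rose and Mmp2, Timp3 and Mmp3 fell by limma's separate-channel test (adjusted p under 0.05, adjusted over all 17083 genes). That is 6 of 10, with 3 in each direction, where 34.1% of all genes passed, 16.2% up and 17.9% down. The median change of the 10 was 0.18 on the log2 scale, against a median of -0.0026 over all genes. The calls of Mmp2 and Timp3 were held under every one of the 16 alternative settings run, and those of the other 4 genes were lost under some. In the diet comparisons 0 of the 10 passed, where 0% of all genes passed.

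**Figure D1:**
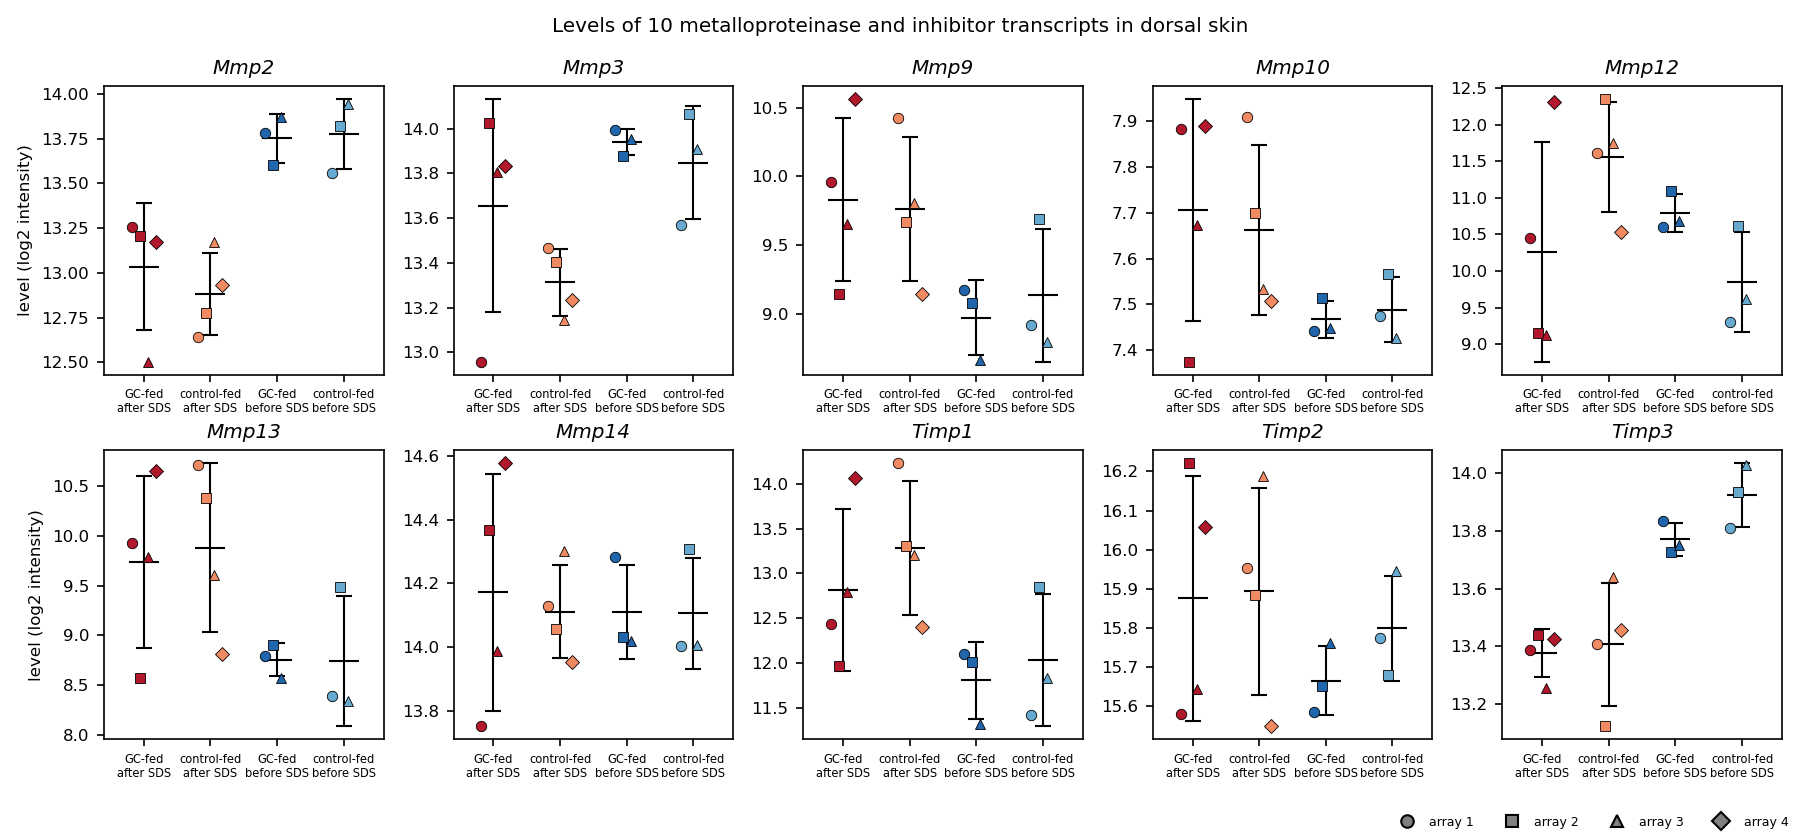
Level of each transcript (log2 intensity, vertical axis, own scale for each gene) in GC-fed and control-fed skin after SDS and GC-fed and control-fed skin before SDS; points are samples, marker shape gives the array number, and bars are mean and SD. Mmp2 and Timp3 lie lower in every sample after SDS than in any sample before SDS.

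Mmp2 encodes gelatinase A, an enzyme of fibroblasts that cuts denatured collagen and type IV collagen. Its level was 13.26, 13.20, 12.50 and 13.17 in GC-fed skin after SDS (arrays 1 to 4), and 13.78, 13.60 and 13.87 in GC-fed skin before SDS. In control-fed skin it was 12.64, 12.77, 13.17 and 12.93 after SDS, and 13.56, 13.82 and 13.95 before SDS. The highest of the 8 samples after SDS was at 13.26, under the lowest of the 6 samples before SDS at 13.56. Averaged over diets Mmp2 fell by 0.81 (SE 0.098, limma adjusted p = 0.000192), a level 1.75-fold lower after SDS. It fell in each diet on its own, by 0.77 in GC-fed skin (SE 0.14, adjusted p = 0.00778; 13.5% of genes passed) and by 0.85 in control-fed skin (SE 0.14, adjusted p = 0.00383; 15.1% of genes passed). The control-fed call was lost without before-SDS array 1 (adjusted p = 0.0607).

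Timp3, which encodes an inhibitor that stays bound to the matrix, moved the same way by a smaller amount. Its level was 13.39, 13.44, 13.26 and 13.43 in GC-fed skin after SDS, and 13.84, 13.73 and 13.75 in GC-fed skin before SDS. Control-fed skin had 13.41, 13.12, 13.64 and 13.46 after SDS, and 13.81, 13.94 and 14.03 before SDS. Again no sample after SDS reached any sample before SDS. Averaged over diets Timp3 fell by 0.46 (SE 0.060, limma adjusted p = 0.000277), 1.37-fold lower after SDS. It fell by 0.42 in GC-fed skin (SE 0.085, adjusted p = 0.0110) and by 0.49 in control-fed skin (SE 0.085, adjusted p = 0.00468). The GC-fed call was lost without before-SDS array 2 (adjusted p = 0.0586) or 3 (adjusted p = 0.0567), and the control-fed call without before-SDS array 1 (adjusted p = 0.0656). Mmp2 and Timp3 were the 2 of the 10 whose 8 samples after SDS did not overlap the 6 before SDS, where 11.1% of all genes did not overlap (6.31% lower after SDS).

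Mmp3 encodes stromelysin-1, which cuts many matrix proteins and activates other metalloproteinases. Its level was 12.96, 14.03, 13.81 and 13.83 in GC-fed skin after SDS, and 13.99, 13.88 and 13.95 in GC-fed skin before SDS. Control-fed skin had 13.47, 13.41, 13.14 and 13.23 after SDS, and 13.57, 14.06 and 13.91 before SDS. The control-fed samples did not overlap, where 30.8% of genes did not, and the GC-fed samples did (23.4% of genes did not overlap there). Averaged over diets Mmp3 fell by 0.41 (SE 0.15, limma adjusted p = 0.0461), just inside the threshold. The call was lost in 10 of 16 alternatives, with adjusted p up to 0.141, among them leaving out any of the 3 arrays before SDS or array 3 or 4 after SDS. In neither diet alone did it pass (adjusted p = 0.412 in GC-fed skin and 0.0924 in control-fed skin), and without after-SDS array 1 it passed in control-fed skin at -0.59 (adjusted p = 0.0170).

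The other 3 changes were rises. Timp1 encodes a secreted inhibitor that is induced in inflammation and repair, Mmp13 encodes collagenase 3, the main interstitial collagenase of rodents, and Mmp9 encodes gelatinase B, an enzyme of neutrophils, macrophages and wound-edge keratinocytes. These 3 transcripts had the widest spread of the 6 that passed, and their groups overlapped.

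Timp1 was at 12.43, 11.97, 12.79 and 14.07 in GC-fed skin after SDS, and at 12.09, 12.01 and 11.31 in GC-fed skin before SDS. Control-fed skin had Timp1 at 14.23, 13.31, 13.21 and 12.40 after SDS, and at 11.41, 12.85 and 11.84 before SDS. The highest sample of GC-fed skin after SDS was that on array 4, and the highest of control-fed skin was that on array 1. Averaged over diets Timp1 rose by 1.13 (SE 0.35, limma adjusted p = 0.0247), 2.19-fold. All 3 Timp1 probes were higher after SDS when each was tested on its own, at 1.14 (adjusted p = 0.0277), 1.09 (adjusted p = 0.0170) and 0.79 (adjusted p = 0.0622, not passing).

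Mmp13 was at 9.93, 8.57, 9.79 and 10.65 in GC-fed skin after SDS, and at 8.79, 8.90 and 8.57 in GC-fed skin before SDS. In control-fed skin it was at 10.72, 10.39, 9.60 and 8.81 after SDS, and at 8.39, 9.49 and 8.33 before SDS. The GC-fed sample on after-SDS array 2 and the control-fed sample on after-SDS array 4 lay within the range of the samples before SDS. Averaged over diets Mmp13 rose by 1.06 (SE 0.32, limma adjusted p = 0.0216), 2.09-fold.

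Mmp9 was at 9.96, 9.15, 9.65 and 10.56 in GC-fed skin after SDS, and at 9.18, 9.08 and 8.67 in GC-fed skin before SDS. In control-fed skin it was at 10.43, 9.67, 9.81 and 9.15 after SDS, and at 8.92, 9.69 and 8.80 before SDS. The same 2 samples that were lowest for Mmp13 after SDS were lowest for Mmp9. Averaged over diets Mmp9 rose by 0.74 (SE 0.24, limma adjusted p = 0.0292), 1.67-fold. This value comes from the probe printed in 10 spots per array. The other Mmp9 probe, tested on its own, was at 0.39 (SE 0.18, adjusted p = 0.117) and did not pass, so the call rests on 1 of 2 probes.

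In neither diet alone did Timp1, Mmp13 or Mmp9 pass. Their SDS effects in GC-fed skin were 1.07, 1.08 and 0.89 (adjusted p = 0.167, 0.130 and 0.0983), and in control-fed skin they were 1.19, 1.04 and 0.59 (adjusted p = 0.119, 0.130 and 0.242). All 3 averaged calls were lost without before-SDS array 3 (adjusted p = 0.0989 for Timp1, 0.0918 for Mmp13 and 0.132 for Mmp9). Leaving out array 1 or array 3 of the SDS-treated skin also ended all 3, and Mmp9 lost its call without before-SDS array 1 (adjusted p = 0.0709), with effects of 0.59 to 1.14 in these fits. The mean of a gene's probes, or no filter on dim probes, also ended all 3 calls (adjusted p = 0.0502 to 0.112). Without after-SDS array 4, Timp1 and Mmp13 passed in control-fed skin at 1.56 (adjusted p = 0.0207) and 1.39 (adjusted p = 0.0347), and without before-SDS array 1 Timp1 passed in GC-fed skin at 1.70 (adjusted p = 0.0454).

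**Figure D2:**
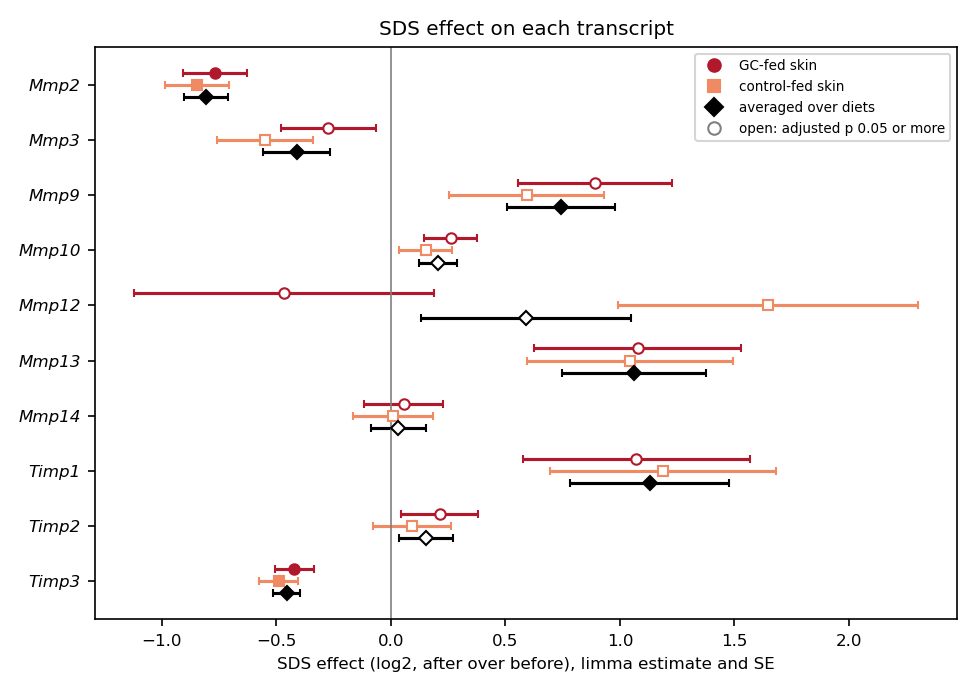
SDS effect on each transcript (log2 of after over before, horizontal axis) in GC-fed skin, in control-fed skin and averaged over diets; points are limma estimates, bars are SE, and filled points passed at an adjusted p under 0.05. Mmp2 and Timp3 are filled in all 3 comparisons, while Timp1, Mmp13, Mmp9 and Mmp3 are filled only when the diets are averaged.

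Mmp10, Mmp12, Mmp14 and Timp2 did not pass for SDS. Mmp10 encodes stromelysin-2, an enzyme of wound-edge keratinocytes. Its measured levels ran between 7.37 and 7.91 after SDS and between 7.43 and 7.57 before SDS, near the background in most samples, with an averaged difference of 0.21 (SE 0.081, limma adjusted p = 0.0678). Mmp14, the membrane-bound enzyme that activates the Mmp2 precursor at the cell surface, differed by 0.03 (SE 0.12, 95% interval -0.23 to 0.30). Its 2 probes were at 0.04 and -0.17, neither passing. Timp2, an inhibitor that also takes part in that activation, differed by 0.15 (SE 0.12, 95% interval -0.10 to 0.41).

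Mmp12 encodes macrophage metalloelastase, which cuts elastin, and it had the widest range of the 10 transcripts. Its level was 10.45, 9.16, 9.13 and 12.32 in GC-fed skin after SDS, and 10.60, 11.10 and 10.69 in GC-fed skin before SDS. In control-fed skin it was 11.61, 12.35, 11.75 and 10.54 after SDS, and 9.31, 10.62 and 9.62 before SDS. The averaged SDS difference was 0.59 (SE 0.46, limma adjusted p = 0.339). It was -0.46 in GC-fed skin (SE 0.65, adjusted p = 0.676) and 1.65 in control-fed skin (SE 0.65, adjusted p = 0.105). Without after-SDS array 4 the GC-fed value was -1.31 (adjusted p = 0.0485) and the control-fed value 2.13 (adjusted p = 0.00519), both passing. Without after-SDS array 3 the GC-fed value was 0.12 (adjusted p = 0.931).

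The diet ratios of GC-fed over control-fed skin followed the arrays. By limma's ratio fit 0 of 10 passed before SDS, after SDS, or in the difference after minus before SDS, and 0 of 17083 genes did. At an unadjusted p under 0.05 there were 68, 761 and 207 genes in these comparisons, and 0 of the 10. After SDS, 1, 5, 3 and 9 of the 10 were higher in GC-fed skin on arrays 1 to 4. Before SDS the numbers were 8, 1 and 5 of 10.

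The diet ratios of Mmp12 spanned the widest range of the 10 transcripts. After SDS they were -1.16, -3.19, -2.62 and 1.78 on arrays 1 to 4, and before SDS they were 1.30, 0.48 and 1.07 on arrays 1 to 3. It was higher in GC-fed skin on all 3 arrays before SDS, as were 9.3% of genes, and lower on 3 of 4 after SDS. The fitted diet effect was -1.30 after SDS (SE 0.72, limma adjusted p = 0.835), 0.81 before SDS (SE 0.86, adjusted p = 1.00), and -2.11 for after minus before SDS (SE 1.12, adjusted p = 1.00). These values moved when single arrays were left out. Without before-SDS array 1 the fitted effect before SDS was -0.10 and that for after minus before SDS -1.20. Without after-SDS array 3 the difference was -1.24. The fit removes a dye effect, and before-SDS array 1 was the 1 of 3 arrays before SDS with the GC-fed sample in Cy3. Without it the dye term came from the arrays after SDS alone, and the ratios on before-SDS arrays 2 and 3 were both above 0. With all arrays and no dye term, the effect before SDS was 0.95.

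Without array 4, the Mmp12 diet effect after SDS was -2.41 (SE 0.35, limma adjusted p = 0.0200), with 930 genes passing. Without array 2 or array 3 it was -0.69 (adjusted p = 0.993) or -0.57 (adjusted p = 0.999), and -1.53 without array 1. With array 4 left out, the value for after minus before SDS was -3.44 (SE 0.51, adjusted p = 0.0728). With the diet labels of array 4 turned round these were -2.33 (adjusted p = 0.00562) and -3.37 (adjusted p = 0.0304). Array 4 was singled out because it opposed the others, so these values are not independent of that choice. In the authors' deposited table the Mmp12 ratios after SDS were -1.61, -3.50, -2.79 and 1.82, and before SDS 1.55, 0.51 and 1.33.

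**Figure D3:**
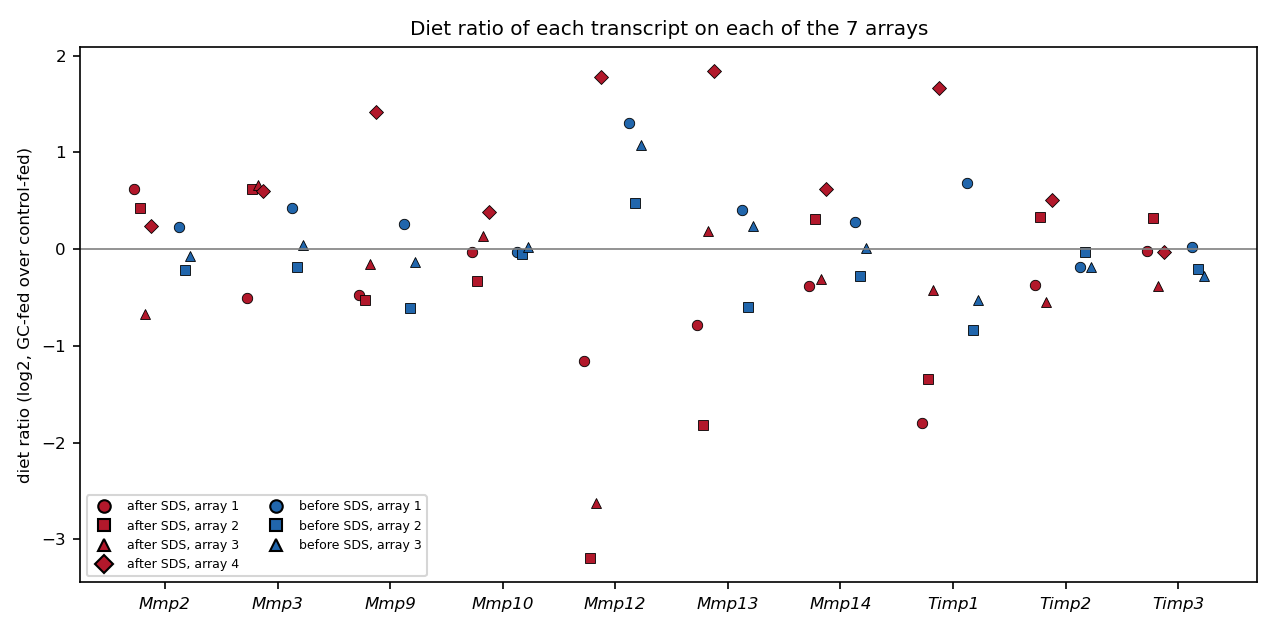
Diet ratio (log2 of GC-fed over control-fed, vertical axis) of each transcript on the 4 arrays after SDS and the 3 arrays before SDS; each point is 1 array. The ratios of Mmp12, Mmp13, Timp1 and Mmp9 on after-SDS array 4 lie above those on after-SDS arrays 1 to 3, at 1.78, 1.84, 1.67 and 1.41. The same holds for Mmp14, Timp2 and Mmp10, at 0.62, 0.51 and 0.38, and not for Mmp2, Mmp3 and Timp3.

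The 3 transcripts that rose with SDS were among the 9 of 10 higher in GC-fed skin on after-SDS array 4. So were Mmp2 and Mmp3, which fell with SDS. On after-SDS arrays 1 to 3 Timp1 and Mmp9 were lower and Mmp13 had both signs, and before SDS all 3 had both signs. Timp1 had diet ratios of -1.79, -1.34, -0.42 and 1.67 after SDS, and 0.68, -0.84 and -0.52 before SDS. Mmp13 had ratios of -0.78, -1.82, 0.19 and 1.84 after SDS, and 0.40, -0.59 and 0.24 before SDS. Mmp9 had ratios of -0.47, -0.52, -0.15 and 1.41 after SDS, and 0.26, -0.61 and -0.13 before SDS. The fitted effects after SDS were -0.47 for Timp1 (SE 0.53), -0.14 for Mmp13 (SE 0.46) and 0.07 for Mmp9 (SE 0.31). Without array 4 they were -1.20, -0.73 and -0.41 (limma adjusted p = 0.103, 0.278 and 0.197), so the sign of Mmp9 turned. With the labels of array 4 turned round they were -1.31, -0.91 and -0.63 (adjusted p = 0.0387, 0.130 and 0.122), and Timp1 passed. Without array 2 Mmp13 was at 0.31, and without array 1 Timp1 was at -0.08.

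For the other 6 the fitted diet effects after SDS lay between -0.03 and 0.34. Mmp3 was highest, with ratios of -0.51, 0.62, 0.66 and 0.60 after SDS and 0.42, -0.19 and 0.04 before SDS (fitted effect after SDS 0.34, SE 0.21, 95% interval -0.16 to 0.85). The fitted effect of Mmp2 was 0.15 (95% interval -0.19 to 0.50), and those of Timp2 and Timp3 were -0.02 (-0.45 to 0.42) and -0.03 (-0.24 to 0.18). Mmp14 was at 0.06 and Mmp10 at 0.04. Without array 4 the 6 values were 0.27 for Mmp3, -0.0041 for Mmp2, -0.23 for Timp2, -0.10 for Timp3, -0.18 for Mmp14 and -0.04 for Mmp10. With its labels turned round they were 0.10, -0.13, -0.31, -0.11, -0.31 and -0.10 in the same order. None of the 6 passed in either fit (0 of 6), and the signs of Mmp2, Mmp14 and Mmp10 turned. Timp2 was lower in GC-fed skin on 3 of 3 arrays before SDS, at -0.19, -0.03 and -0.18, as were 9.6% of genes. Over the 7 arrays the ratios of Mmp2 ran between -0.67 and 0.62, those of Mmp14 between -0.38 and 0.62, and those of Timp3 between -0.38 and 0.32. Mmp10, dim in most samples, ran between -0.33 and 0.38.

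Several transcripts varied together from sample to sample. Over the 14 samples, on the levels as measured, Mmp9 correlated with Mmp13 at r = 0.942, with Timp1 at 0.935 and with Mmp10 at 0.892, and Mmp13 correlated with Timp1 at 0.927. These points share arrays, slides and the SDS state. Within the 8 samples after SDS the r of Mmp9 with Mmp13 was 0.902 and with Timp1 0.871; within the 6 samples before SDS they were 0.914 and 0.938. Mmp2 and Timp3 correlated at 0.898 over all samples, and at 0.572 within the samples after SDS and 0.623 within those before SDS. The correlation of Mmp2 with Timp3 was thus lower within each SDS state than over both, and those of Mmp9 with Mmp13 and Timp1 were high within each as well.

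Among all genes tested, the 2 most like each transcript over the 14 samples were found by Pearson's r on levels with the dye effect removed. For Mmp2 they were Eln, which encodes elastin (0.983), and Aebp1, a collagen-binding matrix protein (0.978). For Mmp3 they were Rcn3 (0.900) and Fkbp10 (0.866), which encode proteins of the endoplasmic reticulum, Fkbp10 being a collagen chaperone. For Mmp10, whose levels were near the background in most samples, they were Tnfrsf11b, the decoy receptor osteoprotegerin (0.968), and Vcan, the proteoglycan versican (0.943). For Mmp12 they were Hvcn1, a proton channel of phagocytes (0.969), and Itgax, an integrin of dendritic cells and macrophages (0.967). For Timp1 they were Edem1, a protein of endoplasmic reticulum quality control (0.982), and Saa1, the acute phase protein serum amyloid A (0.976). The values were 0.974 and 0.960 for Mmp9 (Pgap2 and Zfp608), 0.972 and 0.968 for Mmp13 (the transcript named NAP033385-1 and Chn2), and 0.978 and 0.974 for Timp3 (Pcbp2 and the transcript named NAP045521-1). They were lower for Mmp14 (Cdk14, 0.792, and Arhgef2, 0.791) and Timp2 (Phyhd1, 0.899, and Mef2d, 0.882). Both genes named for Mmp2, Timp3, Mmp9, Mmp13 and Timp1 themselves passed for SDS averaged over diets, as did Fkbp10 and Tnfrsf11b. The other genes named here did not. All these r values span both SDS states, so a change shared with SDS adds to them. Their size within a state was not tested.

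Markers of inflammatory cells moved with some of these values, and those of suprabasal keratinocytes moved against some. Those of wound keratinocytes did both. Over the 14 samples, with the dye effect removed, the mean log2 level of suprabasal markers correlated with Timp1 at r = -0.77. It correlated with Mmp12 at -0.66, Mmp14 at -0.64, Timp2 at -0.60, Mmp13 at -0.58 and Mmp9 at -0.57. The highest r of the 10 was 0.23 for Mmp2. The mean level of wound keratinocyte markers, taken the same way, correlated with Mmp10 at 0.71 and with Mmp9 and Mmp13 at 0.62. With Timp3, Mmp2 and Mmp3 its r was -0.75, -0.68 and -0.65. Macrophage and monocyte markers were measured for 14 of the 16 listed, and their summed intensity was 75928 to 234290 in GC-fed and 86286 to 262300 in control-fed samples after SDS, against 131598 to 163423 in GC-fed and 141090 to 172708 in control-fed samples before SDS. On after-SDS arrays 1 to 4 their median diet ratio was -0.70, -0.55, -0.99 and 0.48, with 0, 1, 0 and 14 of 14 higher in GC-fed skin. Averaged over diets 1 of the 14 rose with SDS and 0 fell, where 34.1% of all genes passed. Within the 8 samples after SDS, Mmp12 correlated with the mean log2 level of these markers at r = 0.911, and within the 6 before SDS at -0.429. For the neutrophil markers described next the values for Mmp12 were 0.894 and 0.355. Over all 14 samples Mmp12 correlated with the neutrophil markers at 0.830 and with the macrophage markers at 0.712. Whether the number of either cell had a part in the Mmp12 ratios was not tested.

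**Figure D4:**
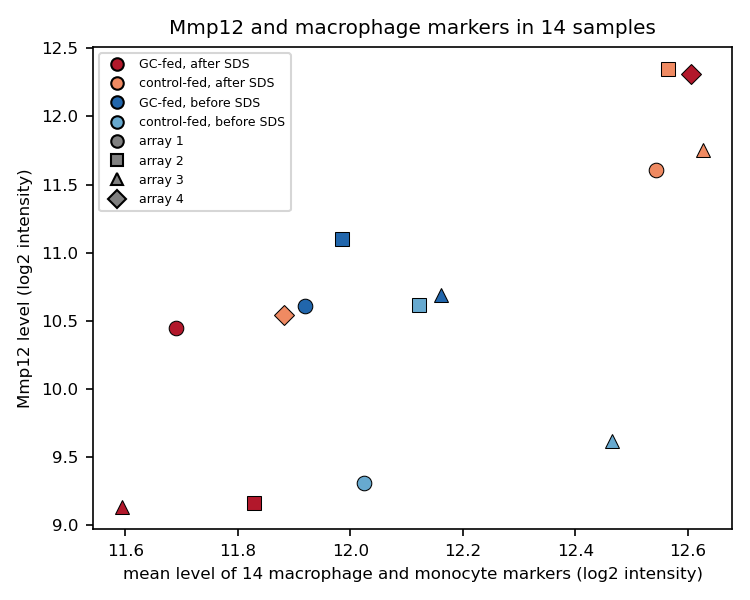
Level of Mmp12 (log2 intensity, vertical axis) against the mean level of 14 macrophage and monocyte markers (log2 intensity, horizontal axis) in the 14 samples, coloured by group, with marker shape for the array number. After SDS the GC-fed sample on array 4 lies within the range of the control-fed samples on arrays 1 to 3 on both axes. The control-fed sample on array 4, with markers at 11.88 and Mmp12 at 10.54, lies below those control-fed samples on both axes. It also lies above the GC-fed samples on arrays 1 to 3, whose highest values were 11.83 for the markers and 10.45 for Mmp12.

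Neutrophil markers were measured for 8 of the 14 listed; Elane, Camp, Ngp and Ltf were on the array and did not pass the filter on dim probes. Averaged over diets 3 of the 8 neutrophil markers rose with SDS and 1 fell (16.2% of all genes rose and 17.9% fell). The changes of the 8 ran from -0.90 to 0.90. Of the 3 that rose, 1 was Mmp8, the neutrophil collagenase, while the lowest of the 8 changes was -0.90. Whether these 8 markers follow the number of neutrophils was not tested. Elane, Camp, Ngp and Ltf have no part in the sums or r values. The summed intensity of the 8 neutrophil markers was 9789 to 41835 in GC-fed and 14559 to 47474 in control-fed samples after SDS. Before SDS it was 10671 to 16854 in GC-fed and 13072 to 20557 in control-fed samples. Within the 8 samples after SDS the mean log2 level of these markers correlated with Mmp9 at r = 0.839 and with Timp1 at 0.831, and within the 6 before SDS at 0.845 and 0.887. Of the 7 measured wound keratinocyte markers 2 rose and 0 fell, of the 8 basal keratinocyte markers 0 rose and 5 fell, and of the 12 fibroblast markers 1 rose and 1 fell, against the same shares of all genes. Of the 12 hair follicle markers 10 rose, with a median change of 1.08. The part of these cell types in the SDS effects was not tested.

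The 4 metalloproteinases Mmp13, Mmp12, Mmp3 and Mmp10 lie in this order in a cluster of such genes on mouse chromosome 9. Their promoter sequences from RefSeq, 250 bases before to 50 bases after the annotated start on build GRCm38.p6, are shown because all 4 hold the same pair of motifs while the 4 transcripts did not move alike. Capitals mark the AP-1 motif TGANTCA, the binding site of Fos and Jun proteins, searched on both strands (its reverse complement reads the same), and the TATA box TATAAA, searched on both strands. Mmp12 has 2 RefSeq starts, and the window shown is the one that holds both motifs. The window of the other start holds neither and is not shown.
Mmp13 promoter (GRCm38.p6, chr9:7272264-7272563, plus strand): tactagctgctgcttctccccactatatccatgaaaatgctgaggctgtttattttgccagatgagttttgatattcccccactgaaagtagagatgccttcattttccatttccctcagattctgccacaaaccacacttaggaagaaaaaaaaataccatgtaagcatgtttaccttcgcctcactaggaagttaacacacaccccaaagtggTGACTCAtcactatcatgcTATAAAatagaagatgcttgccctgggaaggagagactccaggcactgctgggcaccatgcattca
Mmp12 promoter (GRCm38.p6, chr9:7347124-7347423, plus strand): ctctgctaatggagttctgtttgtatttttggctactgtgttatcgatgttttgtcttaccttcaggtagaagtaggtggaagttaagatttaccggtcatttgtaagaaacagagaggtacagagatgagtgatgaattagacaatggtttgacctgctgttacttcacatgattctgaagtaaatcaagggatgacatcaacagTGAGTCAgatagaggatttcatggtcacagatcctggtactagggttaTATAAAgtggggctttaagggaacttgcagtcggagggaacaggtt
Mmp3 promoter (GRCm38.p6, chr9:7445572-7445871, plus strand): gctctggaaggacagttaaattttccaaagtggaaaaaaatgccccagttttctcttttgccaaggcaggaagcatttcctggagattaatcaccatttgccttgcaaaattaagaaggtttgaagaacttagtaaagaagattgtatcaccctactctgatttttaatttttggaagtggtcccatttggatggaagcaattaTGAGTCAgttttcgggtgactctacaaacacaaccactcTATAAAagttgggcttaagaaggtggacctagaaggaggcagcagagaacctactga
Mmp10 promoter (GRCm38.p6, chr9:7502092-7502391, plus strand): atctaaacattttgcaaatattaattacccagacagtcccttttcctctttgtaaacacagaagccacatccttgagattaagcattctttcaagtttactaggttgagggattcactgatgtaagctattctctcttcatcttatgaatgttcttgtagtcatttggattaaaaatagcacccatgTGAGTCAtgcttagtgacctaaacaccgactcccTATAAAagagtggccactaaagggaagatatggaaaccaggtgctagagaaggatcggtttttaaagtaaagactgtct

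In these 4 windows the AP-1 motif began 35 bases before the start in Mmp13, 44 in Mmp12, 46 in Mmp3 and 63 in Mmp10, and the TATA box lay downstream of it without overlap, in Mmp12 after the annotated start. AP-1 was found in 7.81% and TATAAA in 13.6% of 32851 RefSeq mouse promoters of this length. Neither motif was found in the window of the other Mmp12 start or in those of Mmp14, Timp1, Timp2 and Timp3. The ETS-family motif AGGAAG, searched on both strands, was in 35.4% of all promoters, and in the windows of Timp1 (3 times), Mmp13 (2 times), Mmp3, the other Mmp12 start, Mmp14 and Timp3 (1 time each). With a window that holds both motifs, Mmp13 rose with SDS and Mmp3 fell, while Mmp10 and Mmp12 did not pass. A match is a run of letters and not a measured site.

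Genes known to induce metalloproteinase transcription were taken as a list of 21, all measured. With SDS 7 rose and 2 fell, where 16.2% of all genes rose and 17.9% fell, and the median change was 0.15. Ets1, an ETS-family transcription factor, rose by 0.43 (SE 0.048, limma adjusted p = 0.000133), and Jund, an AP-1 subunit, rose by 0.29 (SE 0.065). Areg, the growth factor amphiregulin, rose by 0.36 (SE 0.091), and Ets2, a relative of Ets1, fell by 0.42 (SE 0.097). For the diet after SDS 0 of 21 passed. The lowest p-values there were those of Fosl1, an AP-1 subunit, at -0.14 (SE 0.070), and Il1b, the cytokine interleukin 1 beta, at -1.0 (SE 0.52).

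Of the other metalloproteinases and inhibitors 11 of 18 were measured, of which 2 rose and 3 fell with SDS, where 16.2% of all genes rose and 17.9% fell. Mmp15, Mmp23 and Mmp17 fell by 0.27, 0.36 and 0.20 (limma adjusted p = 0.00147, 0.00279 and 0.00390), and Mmp16, like Mmp15 and Mmp17 a membrane-bound enzyme, rose by 0.21 (adjusted p = 0.0288). The genes of plasminogen activation, precursor activation and related control had 18 of 20 measured, with 3 up and 4 down (34.1% of all genes passed). Ctsk, the collagen-cutting lysosomal protease cathepsin K, fell by 0.86 (SE 0.14, adjusted p = 0.00101). Bsg, a membrane protein known to induce metalloproteinases, fell by 0.33 (SE 0.063), and Thbs2, a matrix protein involved in clearing Mmp2, fell by 0.45 (SE 0.099). Thbs1, its relative, rose by 0.60 (SE 0.14).

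Among the ADAM and ADAMTS proteases, relatives that shed membrane proteins or process matrix, 19 of 25 were measured, with 2 up and 3 down (34.1% of all genes passed). Adam19 and Adamts10 fell by 0.46 and 0.32 (limma adjusted p = 0.000321 and 0.00380), and Adam12 and Adamts15 rose by 0.21 and 0.70 (adjusted p = 0.0144 and 0.0243). Of the matrix proteins that these enzymes cut, 26 of 27 were measured, with 1 up, 5 down and a median change of -0.14. Over all genes 34.1% passed and 17.9% fell. Col5a2, a chain of fibrillar collagen, fell by 0.74 (SE 0.12, adjusted p = 0.000742), and Eln fell by 0.59 (SE 0.072, adjusted p = 0.000185). Lamb3, a chain of the laminin under basal keratinocytes, fell by 0.62 (SE 0.082), and Col17a1, a collagen of the same junction, fell by 0.62 (SE 0.12).

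For the diet after SDS 0 of 11, 0 of 18, 0 of 19 and 0 of 26 genes of these lists passed by limma. The smallest p-values were those of Timp4, another tissue inhibitor, at -0.44 (SE 0.15), of Mmp17 at -0.06 (SE 0.059), of Klk7, a serine protease of skin shedding, at 0.39 (SE 0.14), and of Serpinb2, an inhibitor of plasminogen activators, at 0.44 (SE 0.16). For Adamts2, which trims procollagen, and Adam33 they were 0.22 (SE 0.084) and 0.35 (SE 0.19). Col1a2 and Col3a1, chains of the main fibrillar collagens of skin, were at 0.73 (SE 0.17) and 0.40 (SE 0.13). The adjusted p of these 8 genes was 0.835 to 0.842.

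**Figure D5:**
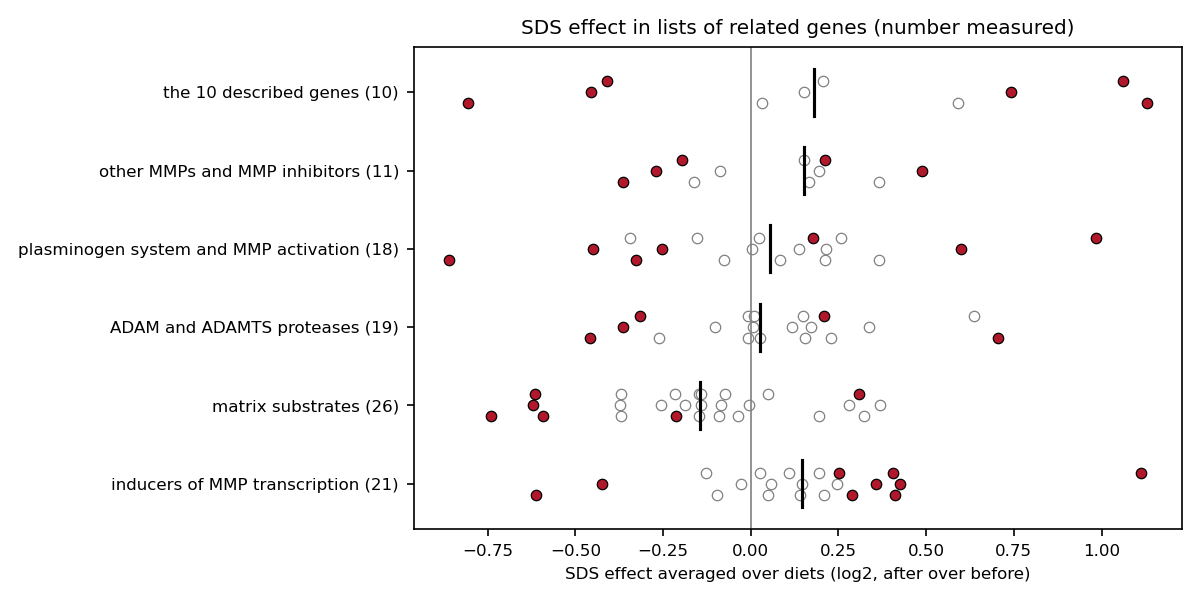
SDS effect averaged over diets (log2 of after over before, horizontal axis) for the genes of each list, with the number measured in brackets; filled points passed at an adjusted p under 0.05, and the vertical bar is the list's median. The medians run from -0.14 for matrix substrates to 0.18 for the 10 transcripts described.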

How the data were processed

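RNA of dorsal skin was measured on 7 two-colour arrays. Per the file headers, the deposited scanner files hold spot intensity from Agilent Feature Extraction 9.1.3.1. The authors also deposited a gene table with log2 ratios (13088 genes, 11319 used), which served as an alternative; the values show that its sign had been turned wherever GC-fed RNA carried Cy3. It held 9 of the 10 transcripts, all but Mmp10.

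Intensities were background-corrected by normexp (offset 50) and loess-normalized in limma 3.58.1 (R 4.3.3). Control spots and outlier spots (4 to 27 per array) were left out. Of 41174 probes, 77 with a missing value were dropped, and 25117 well above background in at least 3 of 14 channels were kept. The probe with the highest mean intensity stood for each of 17083 genes. Probes were named by accession (22951), current symbol (6659), older symbol (3109) or the file's own name (8455). Median signals were 178.5 to 240.1 (green) and 179.8 to 207.8 (red) over backgrounds of 53.5 to 59; the number of arrays limits the precision.

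Diet effects came from limma's fit to the 7 log2 ratios with a dye term, SDS effects from the separate-channel fit of 14 channels in 4 groups after Aquantile normalization, with a within-spot correlation of -0.0073. Residual degrees of freedom were 4 and 9, and eBayes added 2.7 and 3.37. Benjamini-Hochberg adjustment ran over 17083 genes with a threshold of 0.05; 0 genes passed for the dye term. Both fits were run on simulated data with known changes. The simulated spread was capped below that seen in any group for Mmp12, Timp1 or Mmp9, and no simulated array was reversed. That run therefore cannot show how the fits perform on such transcripts or arrays. Each Mmp9, Mmp14 and Timp1 probe was also tested on its own, an alternative chosen after seeing the data. Alternatives covered background correction, normalization, the probe filter and choice, the dye term, a replicate block and each array left out.

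The members and gene lists were chosen with earlier results of these data known. All 10 transcripts were named; from each list the 4 genes with the smallest p for SDS and the 2 for diet after SDS; and for each transcript the 2 genes with the highest Pearson r. Promoter sequences are from RefSeq (GRCm38.p6); windows for 8 of the 10 transcripts were at hand.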

Additional observations from a re-analysis of the deposited data

Results flagged for a closer look

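Of 30 sets of 4 values tested (the diet ratios after SDS and the levels in GC-fed and in control-fed skin after SDS, for each transcript), 2 had a sample whose gap to its nearest neighbour, as a share of the whole range, was above Dixon's 95% critical value for 4 samples. Chance gives about 1 such set in 20. Mmp2 in GC-fed skin after SDS was at 12.50 on array 3, against 13.26, 13.20 and 13.17 on arrays 1, 2 and 4. The diet ratio of Mmp3 after SDS was -0.51 on array 1, against 0.62, 0.66 and 0.60 on arrays 2, 3 and 4.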

How the results depend on the processing

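SDS effects averaged over diets had 6 of the 10 transcripts passing. Without the filter on dim probes, with the mean of a gene's probes, or with the replicate number as a block, 2 passed, and leaving out 1 array at a time gave 2 to 7. In control-fed skin 2 passed, 0 to 5 with 1 array left out (0 without before-SDS array 1, 5 without after-SDS array 4) and 6 with array 4 turned round. In GC-fed skin 2 passed, and 1 to 3 with 1 array left out. For the diet after SDS 0 passed, 0 to 1 with 1 array left out and 2 with array 4 turned round; for after minus before SDS 0 passed, and 1 with array 4 turned round. No passing value changed sign (0 values).

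Over all genes, the averaged SDS effect had 5823 passing, 3262 with the mean of probes and 3587 to 5332 with 1 array left out. In control-fed skin 2581 passed, against 1271 with the mean of probes, 1577 with the block, 4362 with array 4 turned round and 142 to 3638 with 1 array left out. In GC-fed skin 2313 passed, against 1339 from Agilent's processed signals, 1145 with the mean of probes, 1338 with the block and 526 to 2696 with 1 array left out. The diet comparison after SDS had 0, against 930 without array 4 and 1865 with it turned round; after minus before SDS had 0, against 56 and 123. The cause of these shifts was not tested.

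Nothing in the labels says that a replicate number pairs samples before and after SDS. Deviations in mean intensity of arrays with the same number correlated at 0.05, -0.24 and -0.16. For deviations in the diet ratio the values were -0.09, -0.04 and 0.19. So few pairs cannot show whether the numbers pair the samples. In the block fit the within-spot correlation could not be estimated, and the value of the unblocked fit was used. Mmp10, near background, passed at 0.21 with quantile normalization and at 0.25 without after-SDS array 2.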
